A study of Mus musculus with 12 samples.

Results

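Interferon-stimulated genes are the genes that cells switch on when an interferon binds its receptor. A list of 45 well-known mouse members was followed in alveolar macrophages, which live in the airspaces of the lung and take up inhaled particles and surfactant, from mice with and without the transcriptional repressors Bach1 and Bach2. Probes that are not controls were assigned to these genes through their accessions, and the brightest probe stood for each gene. All 45 genes have a named probe on the array, and 43 were well above background in at least 1 genotype and were tested among 23114 genes or transcripts, of which 13811 are named. The 2 members that were not tested are Ifi44, well above background on 4 of 12 arrays, and Slfn5, well above background on 1 of 12. The list was chosen with earlier results of these data known, but no value measured here decides which genes are on it.

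Cells came from lavage fluid of female C57BL/6 mice aged 8 to 9 weeks and were sorted by flow cytometry for alveolar macrophages. There were 3 mice, independent of each other by the series' design text, in each of 4 genotypes: wild type (WT), Bach1 knockout (Bach1 KO), Bach2 knockout (Bach2 KO) and the Bach1/Bach2 double knockout (DKO). Each sample was hybridised to 1 single-colour array. No infection or stimulus is named for any group. The sources used here do not give how the alleles were made or in which cells of the animal the genes were missing.

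Type I interferons signal through Ifnar1 and Ifnar2 to the kinases Jak1 and Tyk2, which activate a complex of transcription factors that holds Stat2 and Irf9. This complex binds the interferon-stimulated response element, or ISRE, near its target genes. Interferon gamma signals through Ifngr1 and Ifngr2 to genes with the gamma-activated sequence, or GAS. The products sense viral nucleic acids, degrade viral RNA, block translation and viral entry, restrict intracellular pathogens or attract lymphocytes, and some of them, such as Usp18, damp the signal. Bach1 and Bach2 are related repressors that pair with small Maf proteins and bind DNA motifs that contain an AP-1 site.

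Slide and genotype were only partly separate. Slide 3 held the 3 DKO arrays and was scanned on another day, Bach2 KO replicate 3 lay on slide 2, and the other 8 arrays shared slide 1, so DKO and its slide cannot be told apart. The share of spots well above background ran from 45.2% in the lowest array, of Bach1 KO, to 72.4% in the highest, of Bach2 KO. Of the 43 members tested, 38 to 43 were well above background on each array. Bach1 signal was 3.93 ± 0.31 in WT and 2.50 ± 0.08 in Bach1 KO on the log2 scale (SD, n = 3), a difference of -1.43 ± 0.32 (SE; limma adjusted p = 0.305 over probes), and -1.44 ± 0.32 in DKO against WT (limma adjusted p = 0.0106 over probes). These 2 p-values come from a separate fit over all probes with a value on every array, without the background filter. Of 2 Bach2 probes, 1 stayed at background throughout and the other did not separate the genotypes, so the arrays do not check the Bach2 label. All 18 listed alveolar macrophage markers were well above background on every WT, Bach1 KO and Bach2 KO array, and 16 of them on every DKO array.

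Promoters were examined for what the members share beyond their name. RefSeq promoter windows of assembly GRCm38.p6, each with 250 bases before the start of a gene and 50 bases after it, were found for 37 of the 45 members; Dhx58, Zbp1, Oas2, Rtp4, Usp18, Parp9, Parp14 and Iigp1 had none. The core of the ISRE, searched as GAAANNGAA on both strands, occurred in 26 of the 37 members (70.3%), against 9.76% of all 27025 genes with a promoter in the table. The GAS motif TTCNNNGAA occurred in 13 of 37 (35.1%), against 9.55% of all genes. The AP-1 site TGACTCA occurred in 8 (21.6%, against 5.95%), and TGACTCAGC, which contains the AP-1 site and is the core bound by Bach and Maf proteins, in 1 member, Cxcl10 (2.7%, against 0.503%). Matches of different motifs may overlap, and a match is a stretch of letters, not a measured site. The following stretches of 100 bases are shown because they cover members that behaved differently after loss of Bach2: 1 member that rose (Gbp3), 2 whose call differed between Bach2 KO and DKO or did not pass (Ifit1 and Isg15), 2 that fell in Bach2 KO (Cxcl9 and Cxcl10), and 2 that rose and have no ISRE core in the window (Oasl2 and Cmpk2). They run 5′ to 3′ towards the gene, with ISRE core matches in capitals, and adjoining matches form 1 run.
Gbp3 (chr3:142559944-142560043, plus strand, 100 to 1 bases before the start): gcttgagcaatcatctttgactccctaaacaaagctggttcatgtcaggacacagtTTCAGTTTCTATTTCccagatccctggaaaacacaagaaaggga
Ifit1 (chr19:34640747-34640846, plus strand, 142 to 43 bases before the start): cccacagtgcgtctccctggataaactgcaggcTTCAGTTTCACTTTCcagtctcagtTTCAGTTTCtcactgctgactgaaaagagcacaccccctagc
Isg15 (chr4:156200837-156200936, minus strand, 118 to 19 bases before the start): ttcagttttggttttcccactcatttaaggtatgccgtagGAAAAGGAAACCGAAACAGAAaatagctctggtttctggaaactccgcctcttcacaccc
Cxcl9 (chr5:92328201-92328300, minus strand, 221 to 122 bases before the start): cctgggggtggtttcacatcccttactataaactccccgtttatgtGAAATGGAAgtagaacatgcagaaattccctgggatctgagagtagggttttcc
Cxcl10 (chr5:92349040-92349139, minus strand, 250 to 151 bases before the start): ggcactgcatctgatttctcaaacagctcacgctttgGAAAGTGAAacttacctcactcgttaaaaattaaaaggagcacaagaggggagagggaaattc
Oasl2 (chr5:114896834-114896933, plus strand, 100 to 1 bases before the start): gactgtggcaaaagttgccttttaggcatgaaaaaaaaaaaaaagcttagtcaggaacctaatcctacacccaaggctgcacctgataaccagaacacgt
Cmpk2 (chr12:26469115-26469214, plus strand, 100 to 1 bases before the start): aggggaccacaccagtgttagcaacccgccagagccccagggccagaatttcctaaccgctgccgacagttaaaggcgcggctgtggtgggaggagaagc

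In Bach2 KO against WT, 3 of the 7 members that rose and have a promoter in the table hold an ISRE core (42.9%), as do 5 of the 7 that fell (71.4%) and 16 of 21 that did not pass (76.2%). The matches of Isg15, Ifit1 and Gbp3 lie within the last 109 bases before the start, whereas those of Cxcl9 and Cxcl10 begin 175 and 213 bases before it. The ISRE core was thus present in members of every class, and members with it rose, fell or did not pass.

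Loss of Bach2 left the interferon-stimulated genes without a common direction. In Bach2 KO against WT, 9 members rose and 7 fell of 43 (37.2%) at a limma adjusted p under 0.05, while 37.1% of all features passed. The members' median log2 difference was -0.01, against -0.30 for all features, and ran from -2.38 (Cxcl9) to 5.46 (Cmpk2). By direction, 20.9% of members rose, against 12.4% of all features, and 16.3% fell, against 24.7%. Members that are dim in WT could enter through the genotypes where they are bright: among the 37 members well above background on all 12 arrays, which leave out Cmpk2, Ifit2 and Gbp5 of those that rose, 6 rose and 7 fell in Bach2 KO, with 41.5% of all features passing, and 9 rose and 5 fell in DKO, with 27.7% passing. The arrays of Bach2 KO and WT did not overlap for 19 members, and for 50.5% of all features. The share of members that passed was therefore close to the background, and nothing particular to the list follows from it.

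The split between rising and falling members depended on how arrays were scaled. It was 11 to 4 after quantile normalization, 9 to 9 after scaling to the array median and 14 to 1 without scaling. The medians of all features were -0.15, -0.53 and 0.39 in these settings, and 34.1%, 40.2% and 30.0% of all features passed. Differences are therefore best read beside the median of all features. Of the 16 calls, 10 held when any single array was left out and 7 members passed among the arrays of slide 1 alone, where 21.4% of all features passed.

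The double knockout gave a like number of calls. In DKO against WT, 11 members rose and 5 fell of 43 (37.2%), while 27.2% of all features passed. Of the members 25.6% rose, against 10.6% of all features, and 11.6% fell, against 16.6%. The median was 0.08 over members and -0.28 over all features, and the arrays did not overlap for 21 members and for 44.9% of all features. In DKO against Bach1 KO, 10 rose and 5 fell (34.9%), while 26.1% of all features passed (10.9% higher and 15.3% lower), and the arrays did not overlap for 24 members and for 46.1% of all features. The comparisons of Bach2 KO and DKO with WT share the WT arrays, and the comparisons of DKO share the DKO arrays. Across the 3 comparisons that remove Bach2, 5 members rose in each (Usp18, Gbp3, Oasl2, Ifitm3 and Ifi47), 4 fell in each (Cxcl9, Ddx58, Samhd1 and Ifi35), and 21 passed in none. The share of all features with these patterns was not worked out, so nothing particular to the list follows from these counts.

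**Figure D1:**
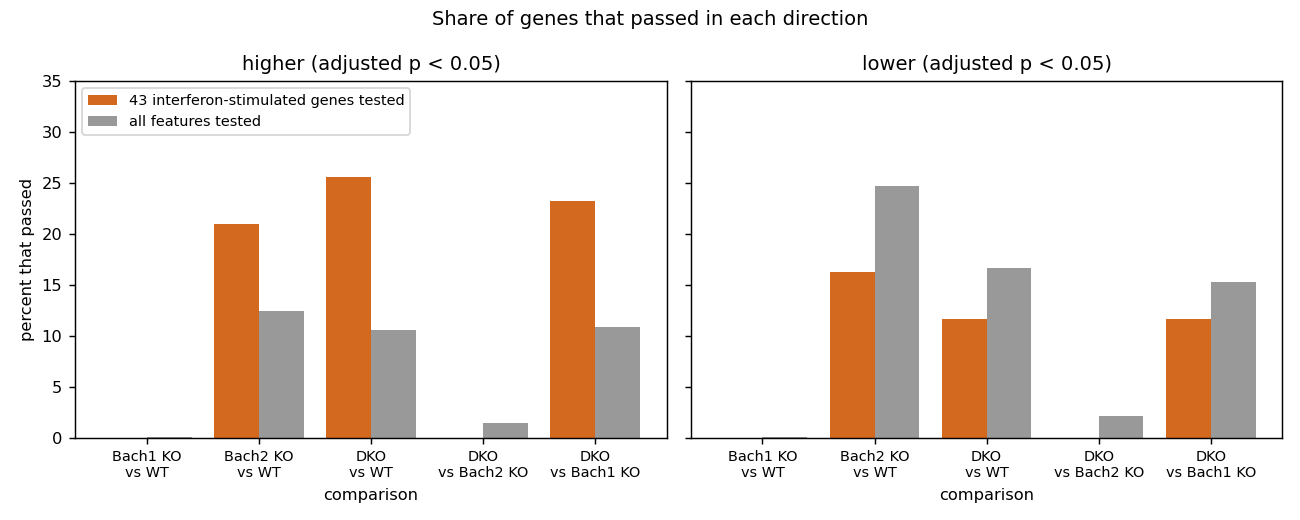
Percent of the 43 interferon-stimulated genes tested (orange bars) and of all features tested (grey bars) that were higher (left) or lower (right) at a limma adjusted p under 0.05, for 5 comparisons on the x axis. In Bach2 KO against WT, 20.9% of members rose and 16.3% fell, against 12.4% and 24.7% of all features; among the 37 members well above background on all 12 arrays, 6 rose and 7 fell.

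**Figure D2:**
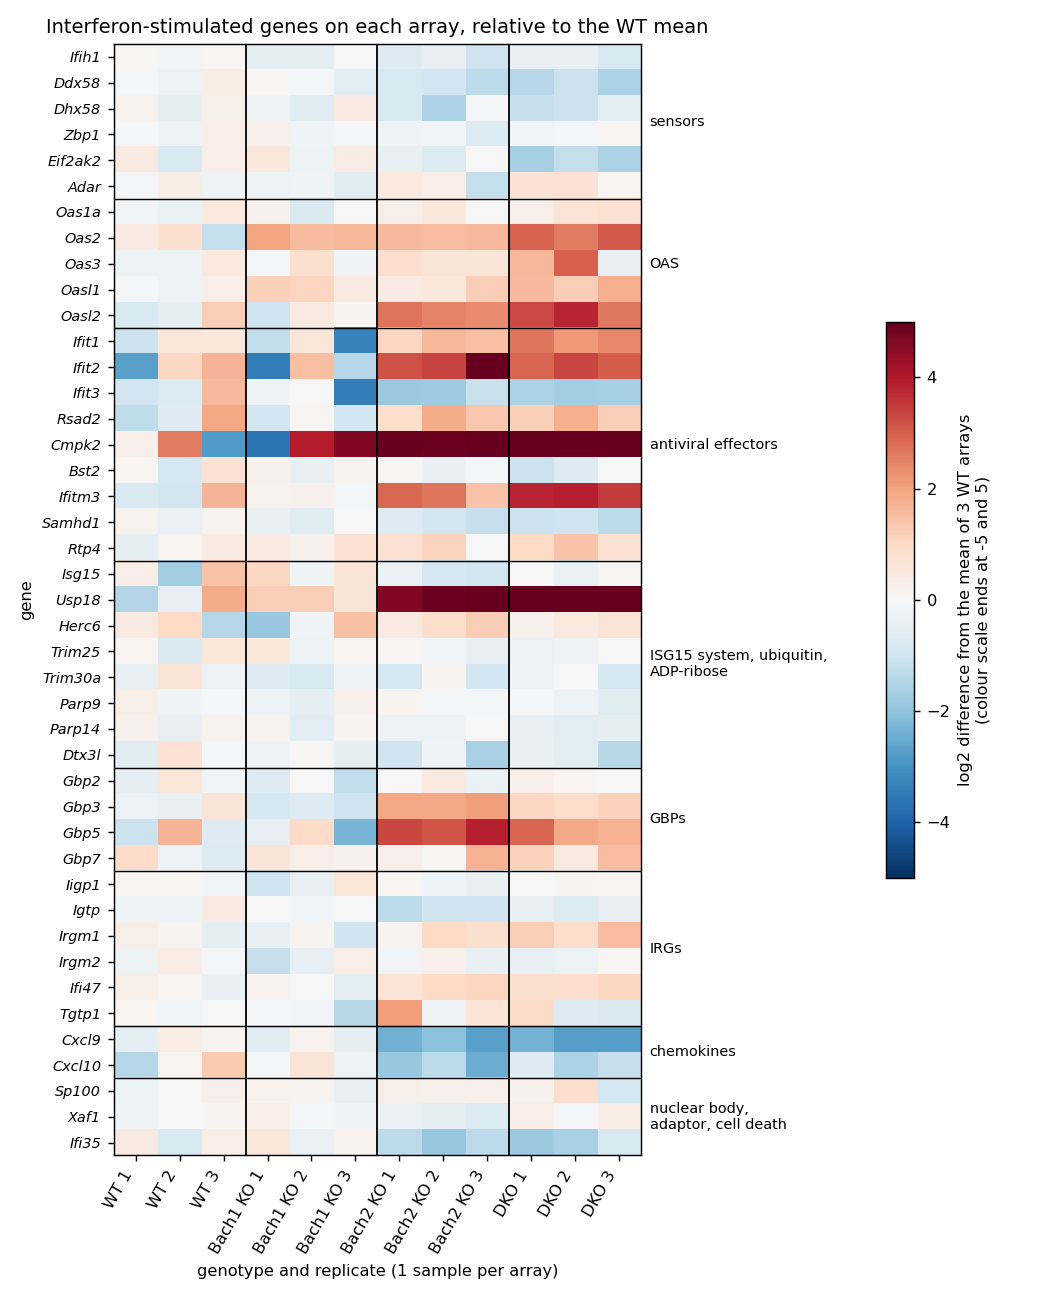
Colours give the log2 signal of each of the 43 members tested (rows, grouped by role) on each of the 12 arrays (columns), minus the mean of the 3 WT arrays. Usp18 and Cmpk2 are far above the WT mean on the 6 arrays without Bach2, while Cxcl9 is below it on these arrays.

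Usp18, which removes ISG15 from proteins and blocks the type I interferon receptor, had the smallest adjusted p of the members in each comparison that removes Bach2. Its log2 signals relative to the array's 75th percentile were -4.19, -3.14 and -0.88 in WT, -1.52, -1.52 and -2.10 in Bach1 KO, 1.88, 2.15 and 2.32 in Bach2 KO and 3.58, 3.26 and 3.46 in DKO. Every array without Bach2 was above every array with it. The difference from WT was 4.86 ± 0.63 in Bach2 KO (28.9-fold; SE, n = 3; limma adjusted p = 0.000164) and 6.17 ± 0.63 in DKO (72.1-fold; limma adjusted p = 2.11e-05). WT replicate 3 lay above the other WT arrays, and without it the difference in Bach2 KO was 5.78.

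The other 7 tested members around ISG15, ubiquitin and ADP-ribose did not pass in Bach2 KO or in DKO against WT, where 37.1% and 27.2% of all features passed. Isg15, the ubiquitin-like modifier that Usp18 removes, read 3.66, 1.56 and 4.73 in WT, 2.99, 2.49 and 2.40 in Bach2 KO and 3.34, 2.99 and 3.36 in DKO. The groups overlapped, and the differences from WT were -0.69 ± 0.62 and -0.09 ± 0.62 (SE; limma adjusted p = 0.407 and 0.927). The ubiquitin ligase gene Trim25 differed from WT by -0.16 ± 0.32 in Bach2 KO, and the ADP-ribosyltransferase gene Parp14 by -0.17 ± 0.24. Its relative Parp9 differed by -0.01 ± 0.24 in Bach2 KO and -0.31 ± 0.24 in DKO, and the tripartite-motif gene Trim30a by -0.56 ± 0.38 and -0.39 ± 0.38. Herc6, which attaches ISG15 in mice, has a dimmer second probe that was higher in Bach2 KO (1.77 ± 0.45, limma adjusted p = 0.0109 over probes) and in DKO (1.35 ± 0.45, 0.0453), while the brightest probe did not pass.

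**Figure D3:**
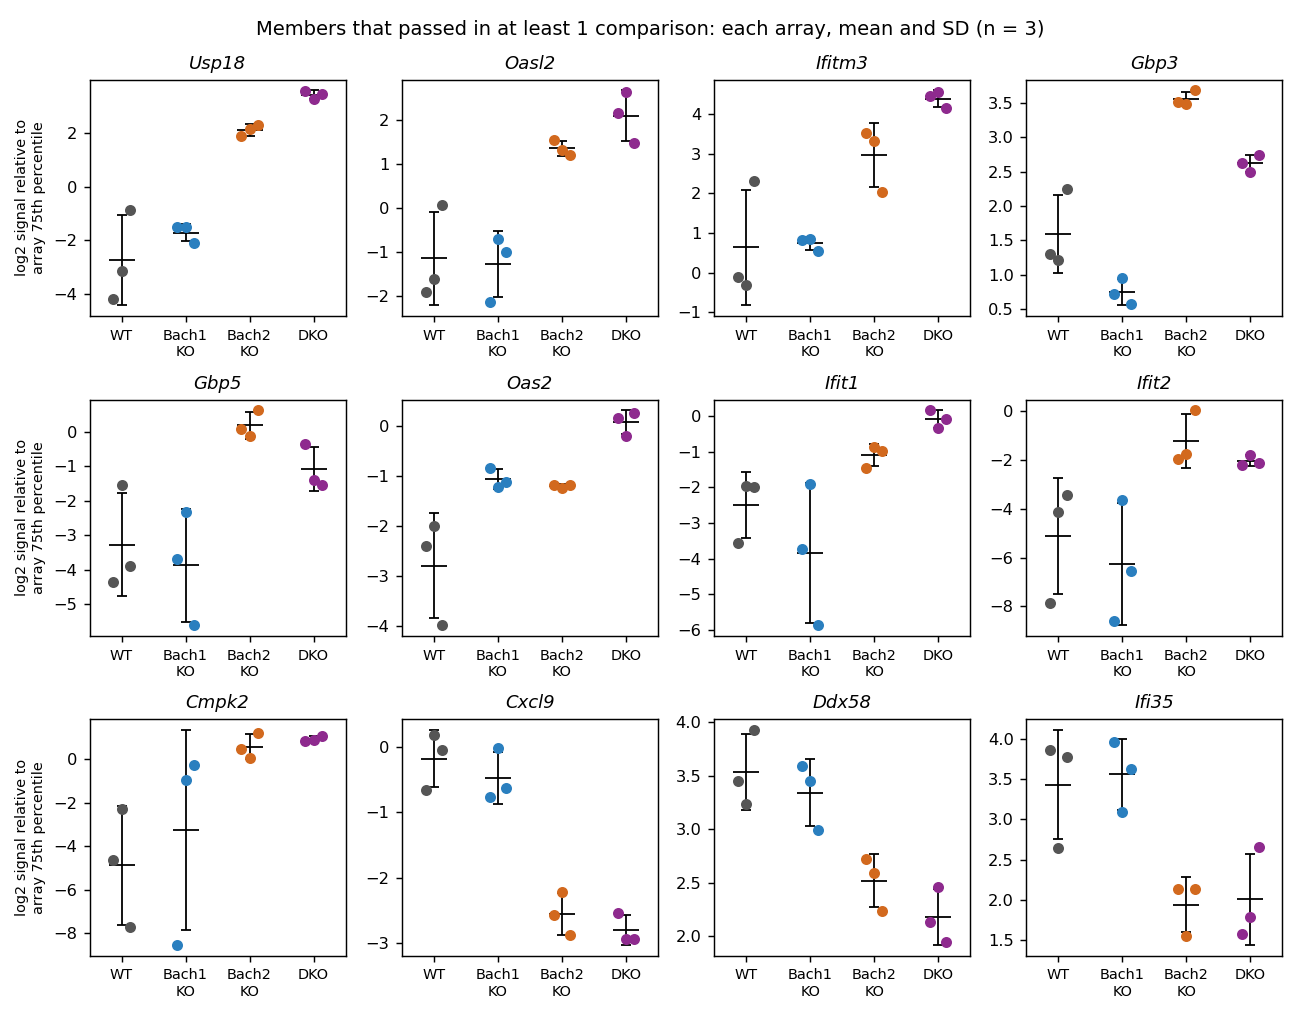
Log2 signal relative to the array's 75th percentile (y axis) by genotype (x axis) for 12 members; points are arrays, and lines show the mean and SD (n = 3). The 3 Bach2 KO and 3 DKO arrays of Usp18 lie above all WT arrays and those of Cxcl9 below them, while the WT and Bach1 KO arrays of Cmpk2 and Ifit2 spread over several log2 units.

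Among the 5 genes of oligoadenylate synthetases, which make the activator of RNase L, and of their OASL relatives, 2 rose in Bach2 KO and 3 in DKO, where 12.4% and 10.6% of all features rose, and none fell. Oasl2 read -1.91, -1.62 and 0.07 in WT, -2.13, -0.70 and -1.01 in Bach1 KO, 1.54, 1.33 and 1.20 in Bach2 KO and 2.15, 2.64 and 1.48 in DKO. All arrays without Bach2 were above all others, with differences from WT of 2.51 ± 0.53 and 3.25 ± 0.53 (SE; limma adjusted p = 0.004 and 0.00084). Oas2 read -2.41, -2.01 and -3.98 in WT, -0.84, -1.23 and -1.13 in Bach1 KO, -1.18, -1.26 and -1.19 in Bach2 KO and 0.15, -0.21 and 0.25 in DKO. WT was lowest and DKO highest, without overlap, and Bach1 KO and Bach2 KO lay together between them. Oas2 was higher than in WT by 1.59 ± 0.44 in Bach2 KO (limma adjusted p = 0.015; 1.0 without WT replicate 3) and by 2.86 ± 0.44 in DKO (limma adjusted p = 0.000516).

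Oasl1 was higher in DKO than in WT by 1.56 ± 0.33 (SE; limma adjusted p = 0.00483), while its difference in Bach2 KO was 0.72 ± 0.33 (limma adjusted p = 0.11). Oas1a did not pass on its brightest probe, with 0.28 ± 0.30 and 0.58 ± 0.30 in Bach2 KO and DKO, and a second probe gave 0.76 ± 0.27 in Bach2 KO (limma adjusted p = 0.0499). Oas3 lay at -4.56 to -3.83 in WT, -3.67 to -3.48 in Bach2 KO and -4.73 to -1.34 in DKO and did not pass. Genes such as Oas1a and Oas1g are near-identical copies, and since the files hold no probe sequences, how far a probe reads its neighbour's transcript was not tested.

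The antiviral effectors divided. Ifitm3, which stops virus fusion at endosomes, read -0.11, -0.30 and 2.32 in WT, 0.83, 0.85 and 0.55 in Bach1 KO, 3.51, 3.32 and 2.04 in Bach2 KO and 4.45, 4.54 and 4.14 in DKO. WT replicate 3 overlapped with Bach2 KO replicate 3, and no DKO array overlapped with another genotype. The differences from WT were 2.32 ± 0.60 in Bach2 KO and 3.74 ± 0.60 in DKO (SE; limma adjusted p = 0.0108 and 0.000714). Samhd1, a phosphohydrolase that depletes nucleotides and so limits reverse transcription, moved the other way: 5.83, 5.34 and 5.82 in WT, 5.0, 4.76 and 4.50 in Bach2 KO and 4.61, 4.67 and 4.31 in DKO. No array without Bach2 reached the WT range, and it fell by 0.91 ± 0.23 and 1.14 ± 0.23 (SE; limma adjusted p = 0.0106 and 0.0038). A second Samhd1 probe gave -0.30 ± 0.24 in Bach2 KO and -0.33 ± 0.24 in DKO and did not pass.

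Cmpk2 and Ifit2 rose from levels that some arrays did not measure. Cmpk2, a mitochondrial nucleotide kinase, read -4.65, -2.28 and -7.73 in WT and -8.54, -0.95 and -0.27 in Bach1 KO, with 2 of 3 arrays well above background in each, and 0.49, 0.04 and 1.20 in Bach2 KO and 0.83, 0.91 and 1.06 in DKO. Its differences from WT were 5.46 ± 1.84 and 5.82 ± 1.84 (SE; limma adjusted p = 0.0365 and 0.0357). The call in Bach2 KO was lost without WT replicate 1 or 3 or any 1 of the Bach2 KO arrays (adjusted p up to 0.14). In DKO it was lost without WT replicate 1 or 3, Bach2 KO replicate 1 or any 1 of the DKO arrays (up to 0.135).

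Ifit2, which binds translation factors, read -7.84, -4.11 and -3.44 in WT, -8.60, -3.63 and -6.57 in Bach1 KO, -1.95, -1.76 and 0.03 in Bach2 KO and -2.21, -1.78 and -2.12 in DKO. It was well above background on 2 WT arrays and 1 Bach1 KO array. It rose by 3.91 ± 1.26 in Bach2 KO (SE; limma adjusted p = 0.03), a call lost without WT replicate 1 (2.55, adjusted p = 0.116), Bach2 KO replicate 2 or Bach2 KO replicate 3, and differed by 3.09 ± 1.26 in DKO (limma adjusted p = 0.0882). Ifit1, which binds viral RNA without a methylated cap and whose ISRE matches are printed above, read -3.57, -1.95 and -1.99 in WT, -1.45, -0.86 and -0.99 in Bach2 KO and 0.16, -0.33 and -0.09 in DKO. It was higher in DKO than in WT by 2.42 ± 0.79 (limma adjusted p = 0.0405), a call lost without 9 of the 12 arrays in turn (adjusted p up to 0.137), and higher in DKO than in Bach1 KO by 3.75 ± 0.79 (limma adjusted p = 0.00461), which held without each array.

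Ifit3 and Rsad2 show how far WT replicate 3 stood from its group. Ifit3, a partner of Ifit1, read 0.99, 1.25 and 3.54 in WT, 0.08, 0.12 and 0.81 in Bach2 KO and 0.35, 0.24 and 0.27 in DKO, and Rsad2, or viperin, read -0.60, 0.04 and 2.63 in WT, 1.58, 2.56 and 2.03 in Bach2 KO and 1.86, 2.50 and 1.92 in DKO. In both genes WT replicate 3 was the highest WT array by over 2 log2 units, and neither gene passed against WT. Rtp4, a chaperone of receptor transport, rose in DKO (1.07 ± 0.34 against WT, SE; limma adjusted p = 0.0351; lost without WT replicate 1, DKO replicate 1 or DKO replicate 2, adjusted p up to 0.128), while in Bach2 KO it differed from WT by 0.64 ± 0.34 (limma adjusted p = 0.161). Bst2, or tetherin, differed from WT by -0.13 ± 0.38 in Bach2 KO and -0.57 ± 0.38 in DKO.

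WT replicate 3 was the highest of the WT arrays for 22 of 43 members (51.2%), and for 45.9% of all features. Its median deviation from the WT mean was 0.31 over members and 0.12 over all features. The range over WT arrays exceeded 2 log2 units for 10 members, and for 15.3% of all features, and for 6 members in Bach1 KO (13.8% of all features), 1 in Bach2 KO (4.32%) and 1 in DKO (4.49%). Without WT replicate 3, 13 members passed in Bach2 KO against WT, with 28.4% of all features, and 12 in DKO against WT, with 20.5%.

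Of the 4 guanylate-binding protein genes, whose products attack the vacuoles of intracellular pathogens, 2 rose in Bach2 KO, where 12.4% of all features rose. Gbp3 read 1.30, 1.22 and 2.24 in WT, 0.72, 0.95 and 0.57 in Bach1 KO, 3.51, 3.48 and 3.68 in Bach2 KO and 2.62, 2.50 and 2.74 in DKO. The 4 genotypes did not overlap and Bach2 KO was highest. Gbp3 was higher than in WT by 1.97 ± 0.28 in Bach2 KO (SE; limma adjusted p = 0.00029) and by 1.03 ± 0.28 in DKO (limma adjusted p = 0.0168; lost without WT replicate 1, DKO replicate 1 or DKO replicate 3, adjusted p up to 0.0662). Gbp5, which also assembles inflammasomes, read -4.37, -1.56 and -3.90 in WT, -3.70, -2.33 and -5.61 in Bach1 KO (2 of 3 arrays well above background), 0.07, -0.13 and 0.62 in Bach2 KO and -0.37, -1.40 and -1.54 in DKO. It rose by 3.46 ± 0.84 in Bach2 KO (SE; limma adjusted p = 0.00786), and in DKO the difference was 2.18 ± 0.84 (limma adjusted p = 0.0736). Gbp2 and Gbp7 differed by 0.05 ± 0.37 and 0.68 ± 0.51 in Bach2 KO, and their arrays overlapped with WT.

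The 6 immunity-related GTPase genes, which act on the membranes of such vacuoles, did not move together. Ifi47 read 3.45, 3.26 and 2.78 in WT, 3.85, 4.17 and 4.25 in Bach2 KO and 3.95, 4.0 and 4.20 in DKO. It rose by 0.93 ± 0.25 and 0.89 ± 0.25 without overlap (SE; limma adjusted p = 0.0143 and 0.0227); the first call was lost without WT replicate 3 or Bach2 KO replicate 3 (up to 0.0558), and the second without WT replicate 3 or any 1 of the DKO arrays (up to 0.0853). Igtp fell in Bach2 KO, from 2.74, 2.71 and 3.36 in WT to 1.63, 1.92 and 1.93, a difference of -1.11 ± 0.23 (SE; limma adjusted p = 0.00364), and read 2.54, 2.25 and 2.53 in DKO (-0.49 ± 0.23 against WT, limma adjusted p = 0.133). Irgm1 was higher in DKO than in WT by 1.21 ± 0.36 (limma adjusted p = 0.0262; lost without WT replicate 3, DKO replicate 1 or DKO replicate 3, up to 0.0937), and a second Irgm1 probe was higher in both, by 2.05 ± 0.63 in Bach2 KO and 2.56 ± 0.63 in DKO (limma adjusted p = 0.0255 and 0.0115 over probes). Iigp1, Irgm2 and Tgtp1 differed from WT by -0.16, -0.09 and 0.87 in Bach2 KO and did not pass.

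**Figure D4:**
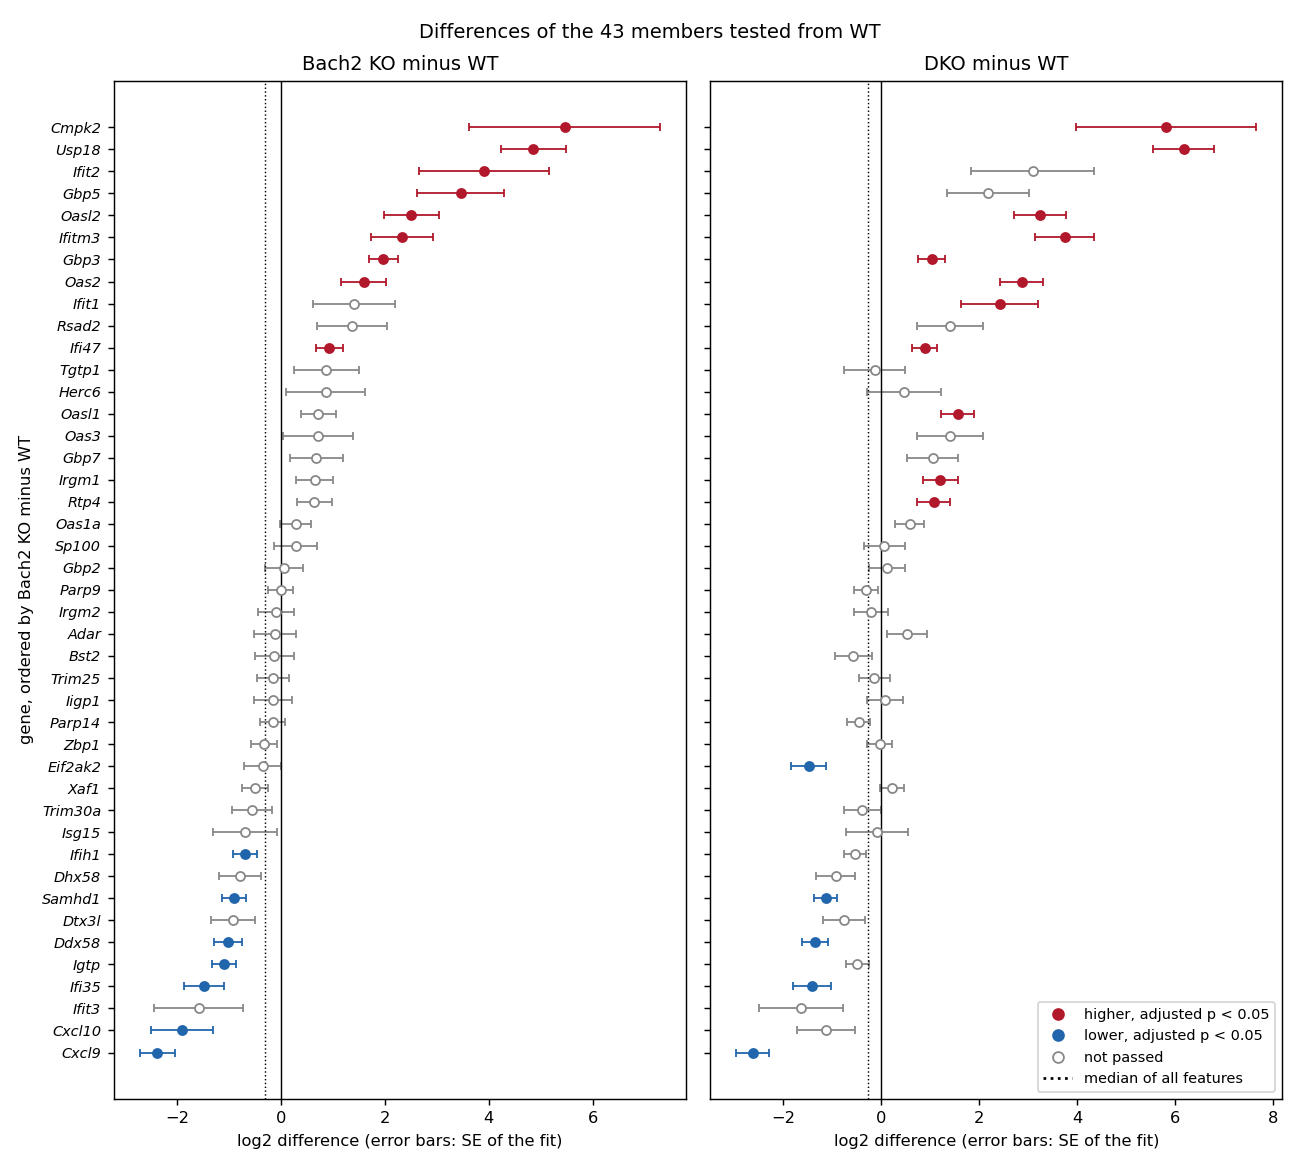
Log2 difference from WT (x axis, points, with the SE of the fit as bars) of the 43 members tested (y axis), ordered by Bach2 KO minus WT, in Bach2 KO (left) and DKO (right); filled points passed at a limma adjusted p under 0.05, and the dotted line is the median of all features (-0.30 and -0.28). Both panels use the same 3 WT arrays. Members run from Cxcl9 at -2.38 to Cmpk2 at 5.46 in Bach2 KO, with 27 open points in each panel.

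Both chemokine genes, which draw T cells through the receptor Cxcr3, fell in Bach2 KO, where 24.7% of all features fell. Cxcl9 read -0.66, 0.18 and -0.05 in WT, -0.77, -0.02 and -0.63 in Bach1 KO, -2.57, -2.22 and -2.88 in Bach2 KO and -2.54, -2.93 and -2.94 in DKO. All 6 arrays without Bach2 were below all 6 with it. It fell by 2.38 ± 0.34 in Bach2 KO (5.21-fold; SE; limma adjusted p = 0.000328) and by 2.63 ± 0.34 in DKO (6.17-fold; limma adjusted p = 0.000147), and a second probe fell as well, by 1.71 ± 0.45 and 2.21 ± 0.45 (limma adjusted p = 0.0138 and 0.00425 over probes). Cxcl10 read -1.12, 0.40 and 1.61 in WT, 0.22, 0.93 and 0.02 in Bach1 KO, -1.62, -1.05 and -2.17 in Bach2 KO and -0.36, -1.29 and -0.87 in DKO, and WT replicate 1 overlapped with Bach2 KO and DKO. It fell by 1.91 ± 0.59 in Bach2 KO (SE; limma adjusted p = 0.0255), by 1.26 without WT replicate 3, and the call was lost without WT replicate 2 or 3 or Bach2 KO replicate 1 or 3 (up to 0.0949). In DKO its difference was -1.14 ± 0.59 (limma adjusted p = 0.17).

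Among 6 sensor and RNA-binding genes, 2 fell in Bach2 KO and 2 in DKO, and none rose, while 24.7% and 16.6% of all features fell and 12.4% and 10.6% rose. Ddx58, which encodes the viral RNA sensor RIG-I, read 3.46, 3.23 and 3.93 in WT, 3.60, 3.45 and 2.99 in Bach1 KO, 2.72, 2.59 and 2.24 in Bach2 KO and 2.13, 2.46 and 1.94 in DKO. The arrays without Bach2 were the 6 lowest, and it fell by 1.02 ± 0.26 and 1.36 ± 0.26 (SE; limma adjusted p = 0.0109 and 0.00266). A second Ddx58 probe passed in DKO (-1.07 ± 0.32, limma adjusted p = 0.031 over probes) and gave -0.51 ± 0.32 in Bach2 KO (0.244). Without scaling between arrays, 6 of the 7 members that fell in Bach2 KO did not pass: Ddx58 (-0.33, limma adjusted p = 0.486), Samhd1 (-0.22; 0.508), Igtp (-0.42; 0.348), Cxcl10 (-1.22; 0.169), Ifi35 (-0.80; 0.146) and Ifih1 (-0.01; 0.991). In DKO, Ddx58 (-0.92; 0.0684), Eif2ak2 (-1.05; 0.0708) and Ifi35 (-0.98; 0.0987) did not pass in that setting.

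Eif2ak2, or PKR, the kinase that stops translation on double-stranded RNA, read 2.64, 1.41 and 2.51 in WT, 2.76, 1.94 and 2.57 in Bach1 KO, 1.82, 1.51 and 2.16 in Bach2 KO and 0.51, 0.99 and 0.59 in DKO. DKO was below every other array, by 1.49 ± 0.36 against WT and 1.73 ± 0.36 against Bach1 KO (SE; limma adjusted p = 0.00937 and 0.0041). Ifih1, or MDA5, fell by 0.70 ± 0.23 in Bach2 KO (limma adjusted p = 0.0327), but its second probe gave 1.24 ± 1.08, and the mean of both probes 0.27 (adjusted p = 0.741); the call was also lost without WT replicate 1 or 3 or Bach2 KO replicate 1 or 3 (up to 0.119). Dhx58, or LGP2, which modulates RIG-I and MDA5, differed by -0.79 ± 0.40 and -0.93 ± 0.40 and did not pass. The second probe of the nucleic acid sensor Zbp1 was higher in DKO (1.27 ± 0.36, limma adjusted p = 0.0235 over probes), and that of the RNA-editing enzyme Adar was lower in Bach2 KO (-1.10 ± 0.33, 0.022), while in these comparisons the brightest probes gave -0.03 ± 0.25 for Zbp1 and -0.12 ± 0.41 for Adar.

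Of the remaining 3 members, Ifi35, an adaptor that binds Nmi, fell. It read 3.87, 2.65 and 3.78 in WT, 3.96, 3.1 and 3.62 in Bach1 KO, 2.14, 1.56 and 2.14 in Bach2 KO and 1.59, 1.79 and 2.65 in DKO. The differences from WT were -1.49 ± 0.39 and -1.42 ± 0.39 (SE; limma adjusted p = 0.0122 and 0.0195), the first lost without WT replicate 1 (0.0516) and the second without WT replicate 1 or 3 or DKO replicate 1 or 2 (up to 0.0804). Xaf1, a cell death gene, had probes that disagreed in Bach2 KO (-0.50 ± 0.24 and 2.94 ± 1.55) and did not pass on either, nor did Dtx3l, a ubiquitin ligase (-0.93 ± 0.43 and 1.66 ± 0.91). Sp100, a nuclear body gene, differed by 0.28 in Bach2 KO and 0.06 in DKO.

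Loss of Bach1 alone moved no member past the threshold. In Bach1 KO against WT, 0 of 43 members passed by limma, while 0.0606% of all features did (0.0173% higher and 0.0433% lower). At an unadjusted p under 0.05 there were 3, against 5.30% of all features. These were Oas2 (1.73 ± 0.44, SE; limma adjusted p = 0.333), Gbp3 (-0.84 ± 0.28; 0.601) and Oasl1 (0.89 ± 0.33; 0.738), and they were also the 3 members whose arrays did not overlap (6.78% of all features). Without WT replicate 3 the differences were 1.14 for Oas2 and -0.51 for Gbp3. The members' median was -0.14, against -0.07 for all features.

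Removing Bach1 on top of Bach2 moved no member past the threshold either. In DKO against Bach2 KO, 0 of 43 passed by limma, while 3.56% of all features did (1.45% higher and 2.12% lower). Before adjustment, 7 had a p under 0.05, against 21.3% of all features. Gbp3 (-0.94 ± 0.28, SE; limma adjusted p = 0.0861), Eif2ak2 (-1.13 ± 0.36; 0.102) and Xaf1 (0.72 ± 0.24; 0.123) had the smallest p, without overlap between the groups. Arrays did not overlap for 12 members, and for 35.2% of all features. With the 2 genotypes fitted alone 4 members passed, with 8.09% of all features, and 4 passed without WT replicate 3, with 4.63%, Gbp3 among them in both. For the interaction, the difference between the effect of Bach1 loss with and without Bach2, 0 of 43 passed by limma, while 0.675% of all features did, and 1 had an unadjusted p under 0.05 (14.8% of all features); Eif2ak2 had the smallest p (-1.37 ± 0.50, limma adjusted p = 0.257).

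Against Bach1 KO, 10 of the 15 members that passed in DKO kept their call without each array. Besides Usp18 (5.15 ± 0.63, SE; limma adjusted p = 9.49e-05) these were Gbp3, Oasl2, Ifitm3, Ifit1, Irgm1 and Ifi47 among those that rose and Cxcl9, Eif2ak2 and Ddx58 among those that fell. Calls that were lost without some array were Ifit2 (4.23 ± 1.26), Gbp5 (2.78 ± 0.84), Rsad2 (2.01 ± 0.68), Ifi35 (-1.55 ± 0.39) and Samhd1 (-0.81 ± 0.23), each without Bach1 KO replicate 1 or DKO replicate 1, among others, with adjusted p up to 0.135. Rsad2 read -0.26, 0.79 and -0.27 in Bach1 KO.

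Of 14 interferon genes on the array, 9 were well above background in a genotype and 0 passed by limma in Bach2 KO or DKO against WT. Ifnb1, the gene of interferon beta, stayed at background on all 12 arrays. Ifng, the gene of interferon gamma, was not tested: it was well above background on 2 Bach2 KO arrays and 2 DKO arrays and on 0 of the 6 WT and Bach1 KO arrays, with normalized log2 values of -8.20 to -6.46 on those 6, -6.23 to -4.80 in Bach2 KO and -7.26 to -4.04 in DKO. Of 9 genes for receptors and Janus kinases, 4 rose in Bach2 KO (44.4%, with 37.1% of all features passing) and 3 in DKO (33.3%, with 27.2%), and none fell. Ifnar1, the signalling chain of the type I receptor, read 1.20, 1.15 and 1.42 in WT, 2.06, 2.25 and 1.52 in Bach1 KO, 3.20, 2.54 and 2.51 in Bach2 KO and 3.26, 3.06 and 3.00 in DKO. It rose without overlap by 1.49 ± 0.27 and 1.85 ± 0.27 (SE; limma adjusted p = 0.00139 and 0.000312). Ifnar2 (-0.19 ± 0.20 in Bach2 KO and 0.08 ± 0.20 in DKO) and the gamma receptor gene Ifngr1 (-0.16 ± 0.22 and -0.53 ± 0.22) did not pass. Jak2, a kinase of the gamma receptor, rose by 1.10 ± 0.30 in Bach2 KO (limma adjusted p = 0.0137; lost without WT replicate 1, 0.77 and 0.0529) and by 1.33 ± 0.30 in DKO (0.00637).

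Of 11 transcription factor genes of the pathway, 2 rose and 4 fell in Bach2 KO, where 12.4% of all features rose and 24.7% fell, and 1 rose and 3 fell in DKO, where 10.6% rose and 16.6% fell. Stat2 and Irf9, of the complex that binds the ISRE, did not rise. Stat2 fell by 0.65 ± 0.22 in Bach2 KO (limma adjusted p = 0.0394; lost without 7 of the 12 arrays in turn, up to 0.143) and differed by -0.50 ± 0.22 in DKO (0.12). Irf9 differed by -0.44 ± 0.29 and 0.09 ± 0.29, and Irf1 by -0.32 ± 0.26 and -0.18 ± 0.26. Irf7, which amplifies the type I response, read -1.68, -1.31 and -2.13 in WT, 0.06, -0.89 and 1.21 in Bach2 KO and -0.92, 0.40 and 0.06 in DKO. It rose by 1.84 ± 0.63 in Bach2 KO (limma adjusted p = 0.0388; lost without WT replicate 1 or 3 or Bach2 KO replicate 1 or 3, up to 0.157), and in DKO differed by 1.56 ± 0.63 (0.0866).

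Irf4 and Irf8, lineage factors of myeloid and lymphoid cells, moved in opposite directions. Irf4 read -0.21, 0.09 and -0.92 in WT, 3.42, 3.44 and 4.10 in Bach2 KO and 2.16, 2.63 and 2.15 in DKO, a rise of 4.0 ± 0.66 and 2.66 ± 0.66 (SE; limma adjusted p = 0.00088 and 0.0113). Irf8 read 5.48, 5.5 and 5.71 in WT, 4.04, 4.46 and 4.01 in Bach2 KO and 4.58, 4.38 and 4.52 in DKO, a fall of 1.39 ± 0.21 and 1.07 ± 0.21 (limma adjusted p = 0.000402 and 0.00247). Neither overlapped with WT.

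Of 14 tested brakes on interferon signalling, 3 rose and 3 fell in Bach2 KO (42.9%, with 37.1% of all features passing), and 2 rose and 4 fell in DKO (42.9%, with 27.2%). Socs1, which inhibits Janus kinases, read -0.41, -0.64 and 0.69 in WT, -1.25, -1.18 and -0.66 in Bach1 KO, 4.53, 4.44 and 4.11 in Bach2 KO and 4.86, 4.94 and 4.87 in DKO. The 6 arrays without Bach2 lay over 3 log2 units above the rest, with differences from WT of 4.48 ± 0.33 and 5.01 ± 0.33 (SE; limma adjusted p = 2.45e-06 and 6.57e-07). Socs3 rose by 2.13 ± 0.45 and 3.19 ± 0.45. Trex1, the nuclease that clears cytosolic DNA, fell by 3.45 ± 0.33 and 2.68 ± 0.33 (limma adjusted p = 1.77e-05 and 9.28e-05), and Rnaseh2c, a subunit of RNase H2, fell by 3.28 ± 0.45 and 2.03 ± 0.45.

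**Figure D5:**
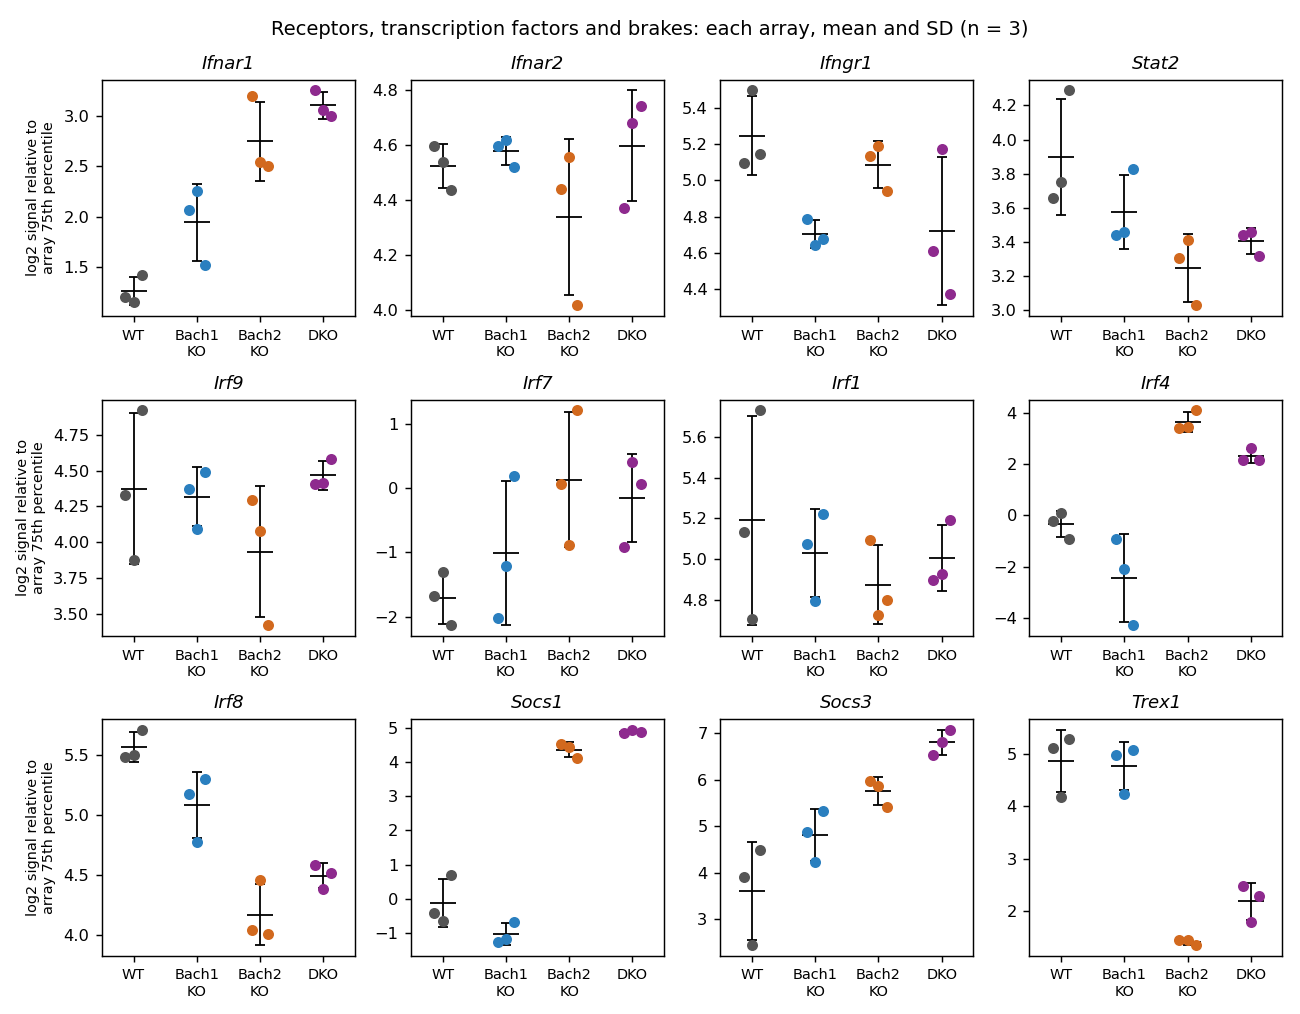
Log2 signal relative to the array's 75th percentile (y axis) by genotype (x axis) for 12 genes of receptors, transcription factors and brakes; points are arrays, and lines show the mean and SD (n = 3). Socs1, Irf4 and Ifnar1 are higher and Irf8 and Trex1 lower on all 6 arrays without Bach2 than on the WT arrays, while Irf9 overlaps.

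Of 19 tested nucleic acid sensors and adaptors, 5 rose and 5 fell in Bach2 KO (52.6%, with 37.1% of all features passing) and 4 rose and 4 fell in DKO (42.1%, with 27.2%). Nlrc5, the activator of MHC class I genes, rose by 2.89 ± 0.41 and 2.77 ± 0.41 (SE; limma adjusted p = 0.000301 and 0.000395), and Mavs, the mitochondrial adaptor of RIG-I and MDA5, fell by 1.52 ± 0.22 and 1.83 ± 0.22 (limma adjusted p = 0.000352 and 8.07e-05). Among 66 tested further interferon-stimulated genes outside the 45, 14 rose and 16 fell in Bach2 KO (45.5%, beside the same 37.1%) and 14 rose and 13 fell in DKO (40.9%, beside 27.2%). These included the chemokine gene Ccl12 (4.57 ± 0.74 and 6.11 ± 0.74) and Ms4a6b, which rose, and Uba7, the activating enzyme of ISG15, which fell by 2.44 ± 0.30 in Bach2 KO (limma adjusted p = 0.000112). Ms4a6b was higher in Bach2 KO and DKO (limma adjusted p = 0.000525 and 0.0018) but well above background on 0 WT arrays. Its mean in Bach2 KO was 18.1-fold and in DKO 11-fold above a WT floor. This floor is the higher of the WT signal and the lowest signal called well above background. Slfn3, with more signal in WT (-3.18, -3.37 and -5.82), was called on 2 of these arrays only, so the folds are not firm lower bounds. In DKO against Bach2 KO, Ifitm1, a relative of Ifitm3, was higher by 3.08 ± 0.61 (limma adjusted p = 0.0206) and Cd69, an early activation marker, lower by 1.37 ± 0.31 (0.0361); the first call was lost without any 1 of the Bach2 KO arrays or DKO replicate 1 or 3 (up to 0.0973), and the second without 8 of the 12 arrays in turn (up to 0.134).

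Markers of cell types changed along with the members. Of 18 alveolar macrophage markers, 14 fell and 0 rose in Bach2 KO and 13 fell in DKO. Of all features, 24.7% and 16.6% fell and 12.4% and 10.6% rose in these comparisons, and the same shares apply to the lists below. The summed signal of the alveolar macrophage markers, as log2 relative to the array's 75th percentile, was 11 to 11.33 in WT, 10.50 to 11.22 in Bach1 KO, 9.32 to 9.81 in Bach2 KO and 9.14 to 9.80 in DKO. Siglecf, a defining surface marker, averaged 5.74 ± 0.46 over the WT arrays (SD, n = 3), -0.60 ± 1.09 over those of Bach2 KO and -2.56 ± 0.45 over those of DKO. Of 7 tested conventional dendritic cell markers, 5 rose in Bach2 KO and 4 in DKO, with a summed level of 2.68 to 3.33 in WT, 5.77 to 6.14 in Bach2 KO and 5.38 to 6.17 in DKO; Xcr1 stayed at background on the arrays of WT, Bach1 KO and Bach2 KO. Of 9 tested T cell markers, 6 rose and 1 fell in Bach2 KO, while the summed level was 6.28 to 7.20 in WT and 5.14 to 5.44 in Bach2 KO, and Cd247 stayed at background on all 12 arrays. The WT sum was nearly all Cd2, the marker that fell, with means of 6.70 in WT and 3.45 in Bach2 KO. Il7r had a mean of -6.94 in WT, where 1 array was well above background, and 4.69 in Bach2 KO, and Lck had means of -3.26 and 0.36. Of 8 plasmacytoid dendritic cell markers, 3 rose and 1 fell in Bach2 KO, and 3 rose and 0 fell in DKO. Their sums were 5.77 to 6.17 in WT, 5.15 to 5.81 in Bach2 KO and 6.33 to 6.50 in DKO. The other lists had calls in Bach2 KO too: 2 rose and 2 fell of 9 tested monocyte markers, and 1 and 3 of 7 neutrophil markers. These counts were 1 and 1 of 4 for B cells, 1 and 1 of 4 for NK cells and 1 and 2 of 5 for epithelial cells. For endothelial cells they were 2 and 0 of 4, and for fibroblasts 1 and 0 of 3. In DKO, 3 monocyte markers rose and 0 fell, and 1 neutrophil marker rose and 2 fell. The DKO counts were 1 and 0 for B cells, 2 and 1 for NK cells and 1 and 1 for epithelial cells. They were 3 and 0 for endothelial cells and 1 and 0 for fibroblasts. In sorted cells measured in bulk, fewer cells of a type and less RNA per cell cannot be told apart. The part of these markers in the members' differences was not tested.

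Within genotypes the members did not rise and fall as a block. Over the 12 arrays, with each genotype's mean removed, the median correlation between members was 0.05 over 903 pairs, against 0.02 between a member and any other feature, and 6.64% of member pairs exceeded 0.7, against 4.65%. These values describe arrays that share a scale and 3 slides, and no test was made of them. The median SD within genotypes was 0.49 for members and 0.47 for all features.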

How the data were processed

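RNA of 12 samples of sorted alveolar macrophages, 3 per genotype, was measured on single-colour Agilent mouse arrays, and the genotype labels gave the groups. The deposited intensity of a spot is Agilent Feature Extraction's processed signal, with background removed and spatial trends corrected, per the file headers by version 10.7.3.1 (the submitters' processing notes give 9.1). The deposited series matrix holds log2 values centred per probe, with column medians from -0.25 to 0.25; the sources used here do not say how they were made, and the values were used only as an alternative.

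Here log2 of the processed signal minus the array's 75th percentile was taken, spots marked as outliers were dropped (136 to 733 an array), and a probe's spots were averaged. To be kept, a probe had to exceed background clearly on the 3 arrays of some genotype (30867 of 55681 probes did). Probes were named through their accessions and RefSeq (26413 by 1 gene), and the brightest probe stood for each gene; array names can be old. A mean per genotype was fitted over all 12 arrays (8 residual degrees of freedom) with limma 3.58.1 (lmFit, eBayes with a trend) in R 4.3.3, and p-values were Benjamini-Hochberg adjusted over 23114 features. The number of arrays limits precision. Mice of different genotypes were treated as unpaired. The fit was tested on simulated data in which 100 of 23114 features changed by 1 log2 unit and 100 by 2. Of those changed by 1, it recovered 2, 6 and 1 in Bach1 KO, Bach2 KO and DKO against WT. Of those changed by 2, it recovered 49, 46 and 53, and of 22914 unchanged features 3, 2 and 1 passed. A member that did not pass may therefore still differ.

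The members and lists were chosen with earlier results of these data known. Members that passed were named, up to 12 per direction and comparison by smallest adjusted p, with the 3 of smallest p where fewer passed; pathway genes named were Stat2, Irf9, Irf7, Irf1, Ifnar1, Ifnar2, Ifngr1 and Ifnb1 and the smallest adjusted p of each list; 1 gene of the rule is not reported here. Alternatives covered scaling, background correction, filters, probe choice, the model, slide, threshold and each array left out. Chosen after seeing the data were normexp on median signals, every probe on its own, and the fit without the pair WT replicate 3 and Bach1 KO replicate 3.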

Additional observations from a re-analysis of the deposited data

Results flagged for a closer look

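Oas1g, a near-identical relative of Oas1a on the list of further interferon-stimulated genes, differed in the effect of Bach1 loss with and without Bach2. Its interaction was 4.05 ± 0.76 on the log2 scale (SE; limma adjusted p = 0.0353), where 0.675% of all features passed. It read -4.10, -5.08 and -5.14 in WT, -8.68, -6.47 and -6.66 in Bach1 KO, -2.88, -2.82 and -2.84 in Bach2 KO and -1.51, -1.35 and -1.02 in DKO. The Bach1 KO arrays lay below those of WT, and the DKO arrays above those of Bach2 KO. Neither of these differences passed by limma on its own, and DKO cannot be told apart from its slide. No Bach1 KO array was well above background. As a floor, the higher of the Bach1 KO signal and each array's lowest signal called well above background was taken. The WT mean was 4.04-fold and the DKO mean 45-fold above it. This floor is not a detection limit. Oas3 read -4.36, -3.53 and -4.51 in Bach1 KO, above Oas1g there, and was called on 2 of these 3 arrays only. The size of the drop in Bach1 KO is therefore uncertain. The interaction lost its call without WT replicate 1 or any 1 of the Bach2 KO or DKO arrays (limma adjusted p up to 0.107). All Oas1g values here are of 1 of its 2 probes, and the other was not examined.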

How the results depend on the processing

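Results kept their direction in nearly every setting, while counts moved with the threshold and with fewer arrays. Of 47 called member differences, 46 had the same direction in every setting and 20 passed in every setting; the exception, Ifih1 in Bach2 KO, turned to 0.27 when a gene's probes were averaged, and the uncalled interaction of Xaf1 turned to -0.27 in that setting. For members passing in Bach2 KO against WT, slide 1 alone gave 7, with 21.4% of all features. An adjusted p under 0.01 gave 6 there, with 20.7% of all features. Leaving out single arrays gave 11 to 17, with 26% to 41.1% of all features, so the background moved as well. The cause was not tested beyond the smaller number of arrays. For DKO against WT, an adjusted p under 0.01 gave 9, with 15.1% of all features. Leaving out single arrays gave 9 (without DKO replicate 1) to 18 there, with 19.1% to 31.8% of all features. For DKO against Bach1 KO these were 9 and 10 (without Bach1 KO replicate 1 or DKO replicate 1) to 16, with 14.4% and 18.3% to 29.6% of all features. For DKO against Bach2 KO, 1 passed after quantile normalization and 1 on the series matrix values, with 5.84% and 10.5% of all features. There were 4 with the 2 genotypes alone and 4 when WT replicate 3 and Bach1 KO replicate 3 were both dropped, with 8.09% and 5.98%. Without single arrays 0 to 4 passed (4 without WT replicate 3, 1 without WT replicate 2), with 1.27% to 4.63%.

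The members' median in Bach2 KO against WT was 0.46 after quantile normalization, 0.68 without scaling, 0.46 on the series matrix values (28 members) and 0.28 with the mean of probes. In DKO against WT it was 0.52 without scaling and 0.82 with the series matrix values, in DKO against Bach1 KO 0.62, 0.81 and (mean of probes) 0.63, in DKO against Bach2 KO -0.09 without scaling and in the interaction -0.29 without scaling. Without single arrays, the medians ran from -0.07 to 0.15 in Bach2 KO against WT and from 0.06 to 0.16 in DKO against WT. The higher to lower split without scaling was 12 to 2 in DKO against WT and 11 to 3 in DKO against Bach1 KO, with 21.5% and 20.4% of all features passing. Same-numbered residuals of different genotypes correlated at -0.15 to 0.38 (median 0.04), and the others at -0.265 to 0.20 (median -0.04). The 3 residuals of a genotype cancel, so these values cannot settle whether replicate numbers pair the samples. With a replicate block, 18, 18 and 16 members passed in Bach2 KO against WT, DKO against WT and DKO against Bach1 KO. The shares of all features were 36.9%, 27.0% and 25.9%. Normexp on the spots' mean signal was not run, since the files used here hold no such column. Signal over background limits the members below it in a genotype: Cmpk2, Ifit2, Ifit1, Gbp5, Oas3 and Tgtp1.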
